A study of Mus musculus with 3 samples.

Results

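The nuclear-encoded subunits of the mitochondrial respiratory chain and ATP synthase were examined by RNA-seq in MC3T3-E1, a line of preosteoblasts from mouse calvaria. They were chosen by gene symbol alone, as every listed gene named Nduf with a letter a, b, c, s or v and a number (complex I), Uqcr (complex III), Cox4 to Cox8 (complex IV) or Atp5 (complex V, the ATP synthase). This rule found 76 of the 15287 listed genes, which were 37 subunits of complex I, 8 of complex III, 14 of complex IV and 17 of complex V. Some subunits carry other symbols, such as Cyc1 of complex III and Ndufab1 of complex I, and are described with the related genes. The table held 0 symbols beginning with mt-, and genes of the mitochondrial genome were not searched for under other names. The subunits which that genome encodes were not analysed here.

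Complex I takes electrons from NADH and complex III takes them from ubiquinol. Complex IV passes them to oxygen, and the proton gradient that these complexes build drives the ATP synthase. Each complex is assembled from many subunits in a fixed ratio, most of which are encoded in the nucleus, made in the cytosol and imported. Osteoblast precursors use this chain together with glycolysis as a source of ATP, and the chain is also a known source of reactive oxygen species.

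Each of the 3 conditions was sequenced as 1 library. The cells of the CTL library had no treatment. Those of the Ti library received titanium (Ti) particles for 24 h at a dose of 10 μg for each square centimetre. Those of the Ti+Se-Met library received the same dose of particles together with 5 μM selenomethionine (Se-Met), also for 24 h. All groups are the same line, and the labels name no genetic change in any of them. Without replicates no test across samples was possible, and every difference below is a difference between libraries, in which treatment and any difference between cultures, extractions or library preparations cannot be told apart. The values compared are FPKM, fragment numbers divided by transcript length and library depth, and where 3 levels of a gene follow each other they stand in the order CTL, Ti, Ti+Se-Met. A ratio is a difference in log2(FPKM + 1), in which the 1 pulls the ratios of weakly expressed genes toward 0. Counts past 1.5-fold use this ratio. A fold printed for a gene is that of FPKM without the added 1, so it can fall on the other side of the threshold. Genes with at least 1 FPKM in at least 1 library were kept, which left 11137 genes and 75 of the 76 subunits.

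The depth was estimated from the steps that 1 fragment makes in low FPKM values, and came to 14000000 (CTL), 14500000 (Ti) and 10300000 (Ti+Se-Met) fragments. Of the low values used, 52.8% to 61.3% lay on a step, against 20% by chance for a setting fixed in advance. The setting was instead chosen to place these same values best, so the excess over 20% is overstated and the depth is approximate. Folds are given with a 95% exact conditional binomial interval on the estimated fragments, which covers counting error only. Of the 9 osteoblast lineage markers checked, Col1a1, Col1a2, Sparc, Spp1 and Runx2 were between 17.14 and 4659.49 FPKM in the 3 libraries. These markers differed widely between libraries, with Col1a1 at 1333.19, 354.20 and 481.63 FPKM, Col1a2 at 2688.49, 998.91 and 1256.60, Runx2 at 26.77, 17.14 and 22.97 and Spp1 at 1261.19, 3705.78 and 4659.49, and their part in the subunits' values was not tested. Alpl was at 1.51 FPKM in CTL and 0.20 in the others, and Sp7, Bglap and Ibsp were below 1 FPKM in every library, so these markers of the lineage were at or near 0. Of 15 markers of macrophages and other blood cells, muscle, endothelium and adipocytes, 8 were listed and 0 reached 1 FPKM. In bulk RNA, fewer cells of a kind and less RNA per cell cannot be told apart.

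Members of a pathway that share binding sites in their promoters are often described together, so the promoter windows of the subunits were searched for 3 motifs known from nuclear genes of respiration. RefSeq windows on GRCm38.p6, with 250 bases before and 50 after the start, were matched for 64 of the 76 subunits. The NRF1 letters CGCATGCG, which read the same on both strands, occurred in 9 of the 64 subunits (14.1%), in 409 of 8892 other genes kept (4.60%) and in 1.87% of all 32851 windows. The YY1 letters AAGATGGC, searched on both strands, occurred in 10 subunits (15.6%), in 5.56% of the other genes kept and in 2.75% of all windows. The ETS letters CCGGAAGT, searched on both strands, occurred in 5 subunits (7.81%), in 9.94% of the other genes kept and in 3.89% of all windows. The shares of subunits and of other genes count genes with the letters in any of their windows, while the last share counts single windows. Of the 69 windows of the subunits, 13.0% held the NRF1 letters, 14.5% the YY1 letters and 7.25% the ETS letters. No pair of these motifs has letters that contain each other. The YY1 letters were found in 7 of 33 complex I subunits, 3 of 15 of complex V and 0 of 5 and 0 of 11 of complexes III and IV. The NRF1 letters were found in 2 of 33 complex I subunits, 2 of 5 of complex III, 1 of 11 of complex IV and 4 of 15 of complex V. A match says only that the letters are in the window. Beneath are the 250 bases before the start of 1 subunit of each complex in which a motif lies ahead of the start, 5′ to 3′ on the strand of the gene, with the motif in capitals. They show how the motif's place differs between subunits.
Ndufa8: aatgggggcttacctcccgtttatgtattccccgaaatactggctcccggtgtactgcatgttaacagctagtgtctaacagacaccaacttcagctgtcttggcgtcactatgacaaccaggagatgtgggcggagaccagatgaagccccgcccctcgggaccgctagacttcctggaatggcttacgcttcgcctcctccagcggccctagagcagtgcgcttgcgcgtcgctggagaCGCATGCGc
Uqcr11: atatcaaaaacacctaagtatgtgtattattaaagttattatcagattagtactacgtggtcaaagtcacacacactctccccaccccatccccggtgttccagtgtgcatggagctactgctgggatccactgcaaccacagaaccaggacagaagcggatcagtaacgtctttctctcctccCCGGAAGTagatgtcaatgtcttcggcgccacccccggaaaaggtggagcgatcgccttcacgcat
Cox6a1: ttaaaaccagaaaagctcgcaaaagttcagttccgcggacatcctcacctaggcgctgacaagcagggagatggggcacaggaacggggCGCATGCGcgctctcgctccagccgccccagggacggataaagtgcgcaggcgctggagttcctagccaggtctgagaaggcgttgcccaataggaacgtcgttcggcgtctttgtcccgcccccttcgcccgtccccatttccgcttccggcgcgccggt
Atp5g2: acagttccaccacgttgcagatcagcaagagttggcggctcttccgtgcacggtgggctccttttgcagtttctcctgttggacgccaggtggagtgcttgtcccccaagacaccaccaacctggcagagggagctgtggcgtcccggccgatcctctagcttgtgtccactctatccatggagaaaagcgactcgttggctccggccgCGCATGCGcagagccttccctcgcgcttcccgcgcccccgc
All 4 genes lie on the minus strand. The window of Ndufa8 (complex I) is chr2:36049339-36049588, that of Uqcr11 (complex III) chr10:80406822-80407071, that of Cox6a1 (complex IV) chr5:115348959-115349208 and that of Atp5g2 (complex V) chr15:102671048-102671297. The NRF1 letters began 9 bases before the start in Ndufa8, 41 in Atp5g2 and 161 in Cox6a1, and the ETS letters began 66 bases before the start in Uqcr11. The window of Uqcr11 also holds the NRF1 letters, which run across the start, so the printed stretch ends within them and they are not in capitals.

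The subunits were well expressed genes, and those of complexes IV and V stood above those of complexes I and III. In CTL, the median level was 220.80 FPKM in complex V, 159.15 in complex IV, 77.58 in complex I and 65.75 in complex III, against 13.53 FPKM over all genes kept. Ti kept this order of the complexes, with 273.74, 262.44, 104.46 and 92.86 FPKM. So did Ti+Se-Met, with 237.34, 231.73, 88.64 and 74.32 FPKM. Together the subunits took 2.37%, 2.80% and 2.59% of all FPKM. The order of the members hardly differed between libraries. Spearman's rho of the levels over the 75 subunits was 0.97 between CTL and either treated library and 0.98 between the treated libraries, and these values share the same genes, lengths and 3 libraries.

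**Figure D1:**
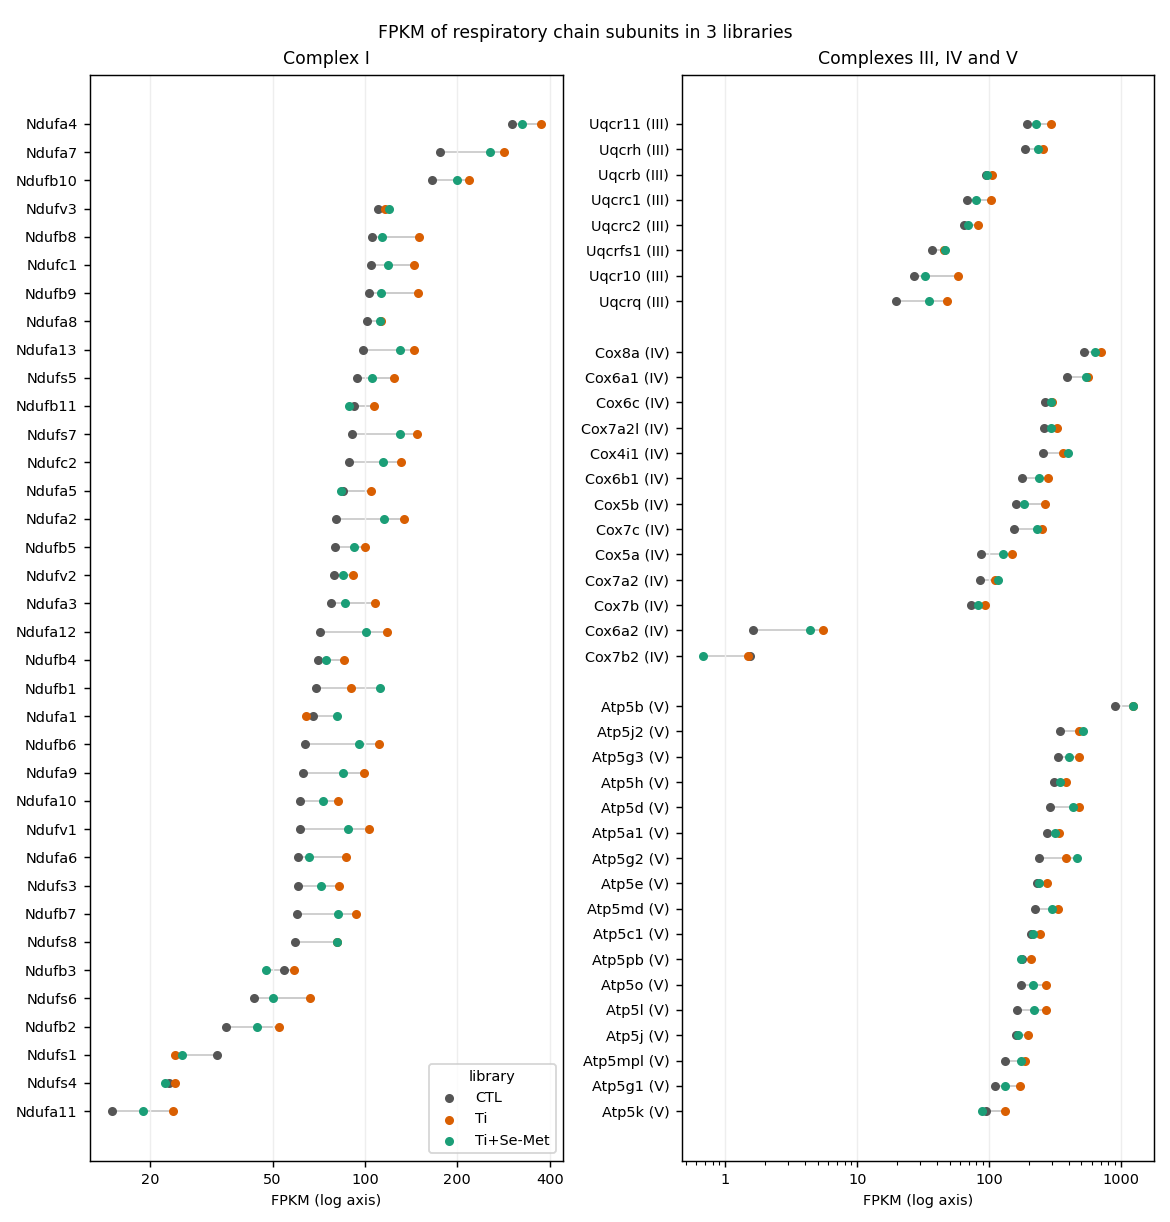
FPKM (log axes) of 74 of the 75 subunits kept, 1 point per library, with CTL in grey, Ti in orange and Ti+Se-Met in green, and genes ordered within each complex by their CTL level. The orange point lies to the right of the grey point in all of these but Ndufs1, Ndufa1 and Cox7b2 (in all but 12 when the libraries are rescaled to TPM), and Cox6a2 and Cox7b2 lie far below all the others.

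Atp5b, the catalytic β subunit of the ATP synthase, was the highest of all subunits, at 905.89, 1228.30 and 1221.68 FPKM. Its partner in the catalytic head, the α subunit Atp5a1, stood at 274.14, 335.82 and 317.90 FPKM, so the transcripts of these paired subunits were not at equal levels. Atp5j2, a small subunit of the membrane part, was the next highest of complex V in CTL, at 342.62, 478.17 and 512.06 FPKM. The lowest of complex V was Atp5k, another small membrane subunit, at 93.72, 131.65 and 87.64 FPKM. In complex IV, the small membrane subunits Cox8a (521.35, 698.07 and 632.22 FPKM), Cox6a1 (389.79, 562.64 and 541.07) and Cox6c (262.86, 300.43 and 294.84) were the highest in CTL.

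In complex I, Ndufa4 was the highest at 301.03, 375.75 and 324.47 FPKM. Its protein is also assigned to complex IV. Ndufa7 followed at 176.16, 283.73 and 254.76 FPKM and Ndufb10 at 164.92, 217.97 and 199.24. The lowest were Ndufs4, a subunit of the NADH-oxidising arm (23.06, 24.05 and 22.26 FPKM), and Ndufa11, a membrane arm subunit (14.97, 23.70 and 18.90 FPKM). In complex III, Uqcr11 (193.03, 295.89 and 228.06 FPKM), the hinge protein Uqcrh (187.11, 254.92 and 233.01) and Uqcrb (94.54, 104.83 and 95.43) were the highest. The lowest of complex III in CTL were Uqcr10 (26.90, 58.37 and 32.69) and Uqcrq (19.78, 47.49 and 35.14). Uqcrq had a listed transcript of 1521 bases and Uqcr10 of 434 bases, and an FPKM depends on the length it was divided by. Many subunit genes have near-identical copies elsewhere in the genome, so reads of these genes may be split in the counting and their levels are uncertain to that extent.

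The first comparison asks how the subunits stood in cells with Ti particles. Of the 75 subunits kept, 72 were higher in Ti than in CTL, against 55.3% of all genes kept, and 3 were lower, against 44.5%. A difference of at least 1.5-fold was seen upward in 25 subunits, against 15.5% of all genes, and downward in 0, against 11.3%. The median ratio was 0.48 over the subunits and 0.08 over all genes, and the middle of the subunits, from the lower to the upper quartile, ran from 0.30 to 0.63. The summed level of the subunits was 10602 FPKM in CTL and 14711.50 in Ti, a ratio of 1.39. Scaling bears on these counts. When each library was rescaled to the same sum (TPM), the all-gene median moved from 0.08 to -0.14, and 63 subunits were higher and 12 lower in Ti, with 3 up and 1 down by 1.5-fold. Of all genes in TPM, 40.3% were higher, 8.22% up and 21.7% down, so the share of subunits past 1.5-fold upward was then below that of all genes. Relative to the median of all genes, the subunits' median was 0.40 higher in FPKM and 0.39 higher in TPM.

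The medians of the complexes lay close together in this comparison. The median ratio was 0.53 in complex III, 0.50 in complex IV, 0.49 in complex V and 0.45 in complex I. The highest and the lowest were 0.07 apart. The subunits within a complex varied more, with quartiles of 0.29 and 0.59 in complex I, 0.34 and 0.73 in complex III, 0.35 and 0.70 in complex IV and 0.29 and 0.62 in complex V, and no error of a complex median could be had from 1 library. By 1.5-fold, 10 of 37 complex I subunits, 4 of 8 of complex III, 5 of 13 of complex IV and 6 of 17 of complex V were higher in Ti. The share over all genes was 15.5%. In TPM the counts were 0 of 37, 2 of 8, 1 of 13 and 0 of 17, beside 8.22% of all genes. Every complex III and complex V subunit was higher in Ti than in CTL in FPKM, while in TPM 7 of 8 and 16 of 17 were. The exceptions in FPKM were 2 subunits of complex I and 1 of complex IV, which became 8 and 2 in TPM.

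**Figure D2:**
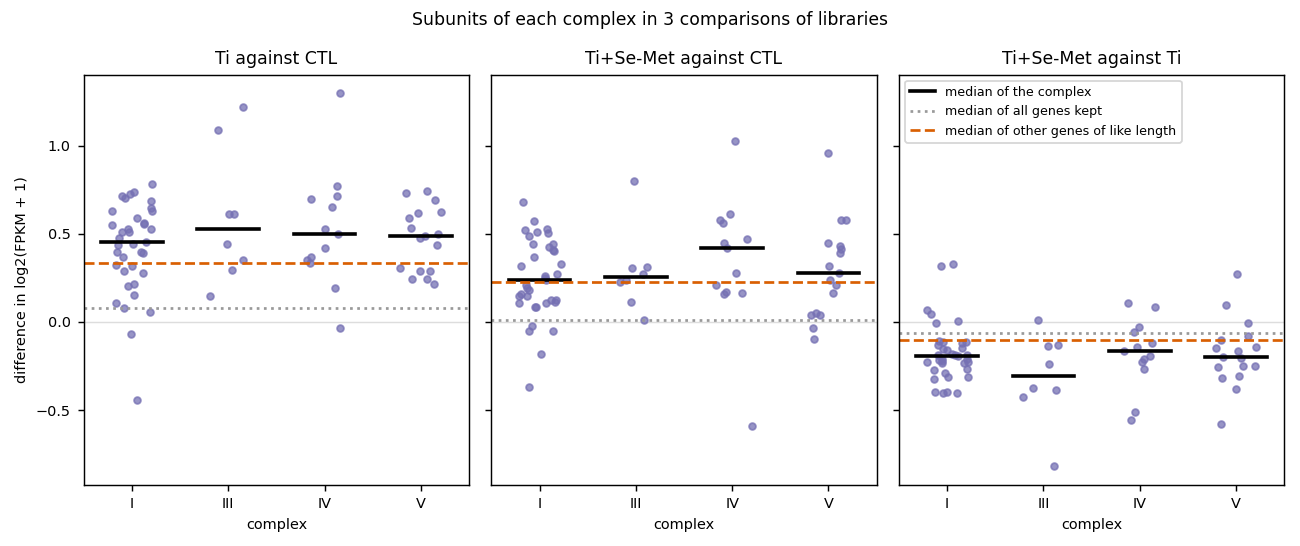
Difference in log2(FPKM + 1) between libraries for each of the 75 subunits (points), by complex, with the median of each complex (black bar), of all 11137 genes kept (dotted) and of 2238 other genes of like transcript length (dashed). The 4 medians lie between 0.45 and 0.53 in the left panel. In the middle panel complex IV (0.42) lies above complex I (0.24).

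Complex III held the widest differences among well expressed subunits. Uqcrq was at 19.78 FPKM in CTL and 47.49 in Ti, a fold of 2.40 (2.13 to 2.71). Uqcr10 was at 26.90 and 58.37 FPKM, a fold of 2.17 (1.73 to 2.73). These are small subunits of complex III, and both were also among its lowest in CTL. The larger core subunits of the same complex were at 67.48 and 103.60 FPKM for Uqcrc1 and at 64.02 and 82.12 for Uqcrc2. Uqcrfs1, the Rieske iron-sulfur subunit that hands electrons to cytochrome c1, was at 36.89 and 45.50 FPKM.

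In complex IV the widest difference belonged to Cox6a2, the heart and muscle isoform of subunit 6a, at 1.62 FPKM in CTL and 5.45 in Ti, a fold of 3.36 (1.79 to 7.21). It rested on about 12 fragments in CTL and 43 in Ti. Of the muscle markers checked, Acta1, Ckm and Tnnt3 were each below 1 FPKM in all libraries. Cox5a, which binds on the matrix side of the enzyme, was at 86.05 and 147.69 FPKM, a fold of 1.72 (1.55 to 1.90). Cox5b, a zinc-binding subunit, was at 159.15 and 262.44 FPKM. The widest difference of complex I was that of Ndufb6, a membrane arm subunit, at 64.02 and 110.84 FPKM with a fold of 1.73 (1.54 to 1.94).

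Among the 7 core subunits of complex I that the nucleus encodes, which carry the flavin and the iron-sulfur clusters or the quinone site, 6 were higher in Ti than in CTL and 1 was lower (5 and 2 in TPM). Ndufv1, which binds the flavin that accepts electrons from NADH, was at 61.33, 103.10 and 87.82 FPKM. Ndufs7 was at 90.47, 148.28 and 130.51 FPKM. These were the core subunits past 1.5-fold in Ti against CTL in FPKM. In TPM 0 of the 7 passed it upward and 1 downward. Ndufs3 (60.37, 82.12 and 72.05 FPKM), Ndufs8 (59.36, 80.92 and 81.16) and Ndufv2 (79.52, 91.68 and 84.57) had ratios in Ti against CTL between 0.20 and 0.44. The median of the core was 0.44, and that of the 30 accessory subunits of complex I was 0.46.

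Ndufs1, the largest iron-sulfur subunit of the NADH arm, was the exception. It stood at 33.06, 24.07 and 25.32 FPKM, lower in both treated libraries. The fold over CTL was 0.73 (0.67 to 0.80) in Ti. In Ti+Se-Met it was 0.77 (0.69 to 0.84). With 2661 bases it also had the longest transcript of all subunits. Among other long complex I subunits, Ndufb8 (2142 bases) was at 105.16 FPKM in CTL and 150.49 in Ti, and Ndufs4 (1698 bases) at 23.06 and 24.05. The part of length in these values was not tested. The other subunits that were lower in Ti were Ndufa1, a small subunit of the membrane arm (67.53, 64.33 and 81.09 FPKM), and Cox7b2 (1.53, 1.47 and 0.68). The Ti and CTL intervals of both included a fold of 1, from 0.80 to 1.13 for Ndufa1 and from 0.34 to 2.75 for Cox7b2. The least different of the subunits that were higher in Ti were Ndufs4, with a ratio of 0.06, and Ndufv3, with a ratio of 0.08 (110.07, 116.21 and 120.19 FPKM).

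The other subunits filled the range between these. In the catalytic head of the ATP synthase, Atp5d (287.27, 482.17 and 429.33 FPKM) had a ratio of 0.75 in Ti against CTL, the highest of complex V, beside 0.25 for Atp5c1 (205.98, 244.62 and 213.11) and for Atp5e (230.70, 273.74 and 237.34), which form the central stalk with it. In the peripheral stalk, which holds the head in place, Atp5o (173.37, 268.22 and 216.43 FPKM) had a ratio of 0.63, Atp5h (308.18, 381.55 and 345.60) 0.31, Atp5j (160.61, 196.72 and 165.28) 0.29 and Atp5pb (178.25, 206.80 and 174.07) 0.21. Subunits of the same stalk thus differed from each other by more than the medians of the complexes did. A median over many genes varies less than single genes do, so no conclusion is drawn from this. In the membrane part, Atp5l (163.07, 271.60 and 217.57 FPKM) had 0.73, Atp5md (220.80, 333.31 and 301.14) 0.59 and Atp5mpl (131.75, 186.39 and 173.34) 0.50. In complex IV, Cox7c (154.51, 251.49 and 231.73 FPKM) had a ratio of 0.70. The accessory subunits of complex I whose values are not given elsewhere lay between 0.16 (Ndufa8, at 101.34, 112.99 and 112.32 FPKM) and 0.73 (Ndufa2, at 80.80, 134.31 and 115.35 FPKM).

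The second comparison sets cells with particles and Se-Met against untreated cells. In the Ti+Se-Met library 67 subunits were higher than in CTL and 8 were lower, against 51% and 48.8% of all genes. By 1.5-fold, 5 were higher and 1 was lower, against 10.4% and 11.7%. The share past 1.5-fold upward was thus below that of all genes, although the median ratio was 0.26 over the subunits and 0.01 over all genes. In TPM, where the all-gene median was -0.17, the split was 46 higher and 29 lower, with 3 up and 1 down by 1.5-fold, beside 35.7% of all genes higher, 6.42% up and 21.4% down. The medians were 0.42 in complex IV, 0.28 in complex V, 0.26 in complex III and 0.24 in complex I, a spread of 0.18. The quartiles of complex IV (0.17 and 0.56) overlapped those of complex I (0.11 and 0.43). The spread was 0.11 when no gene was filtered, which adds Cox7a1, and 0.12 when the summed FPKM of each complex was compared, with complex III then the lowest.

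Of the 5 subunits past 1.5-fold upward, Atp5g2, a gene for the c subunit of the proton-carrying ring of the ATP synthase, stood at 236.83, 382.73 and 462.28 FPKM. Its fold over CTL was 1.95 (1.84 to 2.07). Cox4i1, the general isoform of the regulatory subunit 4, was at 257.71, 365.06 and 394.13 FPKM, a fold of 1.53 (1.44 to 1.62). Ndufb1, a small subunit of complex I, was at 69.54, 90.02 and 112.28 FPKM, and no transcript length and so no interval was found for it. Cox6a2 (4.35 FPKM in Ti+Se-Met) and Uqcrq (35.14) were the others. All but Cox6a2 and Uqcrq were higher in Ti+Se-Met than in Ti. In TPM, Atp5g2 (ratio to CTL 0.76), Uqcrq (0.62) and Cox6a2 (1.03) were still past 1.5-fold. Cox4i1 (0.41) and Ndufb1 (0.49) were then below it.

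The subunits that were lowest relative to CTL were Cox7b2 (ratio -0.59), Ndufs1 (-0.37), the membrane arm subunit Ndufb3 (-0.18), Atp5k (-0.10) and Ndufb11 (-0.05). Cox7b2 rested on about 9 fragments in CTL and 3 in Ti+Se-Met, with a fold of 0.44 (0.08 to 1.82). Ndufb3 was at 54.34, 58.63 and 47.72 FPKM and Ndufb11 at 91.90, 106.76 and 88.64. The intervals of Ndufb3 (0.76 to 1.02), Atp5k (0.78 to 1.12) and Ndufb11 (0.87 to 1.06) included a fold of 1.

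The third comparison sets Se-Met with particles against particles alone. In Ti+Se-Met, 10 subunits were higher than in Ti and 65 were lower, against 38.5% and 61.1% of all genes. By 1.5-fold, 0 were higher and 1 was lower, against 0.844% and 1.28%. The median ratio was -0.19 over the subunits and -0.06 over all genes. The medians were -0.16 in complex IV, -0.19 in complex I, -0.20 in complex V and -0.31 in complex III, a spread of 0.14. Complex III stood lowest in every alternative, while complex I was the highest when Ndufa4 was counted in complex IV and Cox7a2l left out, and complex V was the highest by summed FPKM. By the ratio of log2(FPKM + 1), the subunit past 1.5-fold was Uqcr10, at 58.37 and 32.69 FPKM in these libraries, a fold of 0.56 (0.44 to 0.71). The folds of FPKM alone of Atp5k and Cox7b2, given next, were also past 1.5-fold downward. With a pseudocount of 0.1 in place of 1, 3 subunits passed.

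In the same comparison, Atp5k had a ratio of -0.58 and a fold of 0.67 (0.56 to 0.79). Cox7b2 had a ratio of -0.56 on about 9 and 3 fragments, with a fold of 0.46 (0.08 to 1.88). Cox5b was at 262.44 and 184.07 FPKM, a fold of 0.70 (0.66 to 0.75). Uqcrq had a fold of 0.74 (0.66 to 0.83). The subunits that were highest relative to Ti were Ndufa1 (ratio 0.33), Ndufb1 (0.32), Atp5g2 (0.27), Cox4i1 (0.11) and Atp5j2 (0.10). The fold of Ndufa1 was 1.26 (1.05 to 1.51) and that of Atp5g2 was 1.21 (1.15 to 1.27).

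Across the 3 libraries, Ti+Se-Met lay between CTL and Ti, with Ti the highest, in 58 of the 75 subunits (77.3%), against 31.97% of all genes kept. This pattern needs Ti above CTL, so much of the gap repeats the first comparison. Among genes with Ti above CTL, it held in 58 of 72 subunits and in 3560 of 6159 of all genes kept. In 8 subunits Ti+Se-Met was above Ti and Ti above CTL, in 6 it was at or below CTL while Ti was above, and in 3 Ti was at or below CTL. Over all genes kept these patterns took 14.3%, 8.89% and 44.7%, beside 10.7%, 8% and 4% of the subunits. All these patterns were counted in FPKM and depend on scaling. In TPM 46 subunits were higher in Ti+Se-Met than in CTL and 29 were lower, so fewer than 58 could lie between. Of all genes, 35.7% were higher in Ti+Se-Met than in CTL in TPM. The comparisons share libraries, since the Ti value of a gene enters the first and the third, so the counts above are not independent of each other.

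Transcript length moved with these ratios over all genes. The subunits have short transcripts, with a median of 713.5 bases and a range from 315 to 2661 over the 75 that had a length. Over the other genes kept, the median ratio of Ti against CTL was 0.41 for transcripts of up to 500 bases, 0.41 from 750 to 1000, 0.23 from 1500 to 2000, 0.01 from 3000 to 5000 and -0.17 above 5000. In every length class that held subunits, the subunits' median was above that of the other genes in this comparison. The 30 subunits of 500 to 750 bases had a median of 0.53 beside 0.41 for 246 other genes, and the 9 subunits of 1500 to 2000 bases had 0.44 beside 0.23 for 1347 other genes. For Ti+Se-Met against CTL, the subunits in the 3 classes of up to 1000 bases had medians of 0.24, 0.30 and 0.26, beside 0.34, 0.30 and 0.29 for the other genes. The median of the subunits was thus below that of the other genes in the class of up to 500 bases, within 0.03 of it from 500 to 1000 bases and above it in the 3 longer classes. Here and in the set of like length below, the other genes leave out only the subunits. They include ribosomal protein genes and assembly factors, whose own ratios are given further below, so they are not a background free of related genes.

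**Figure D3:**
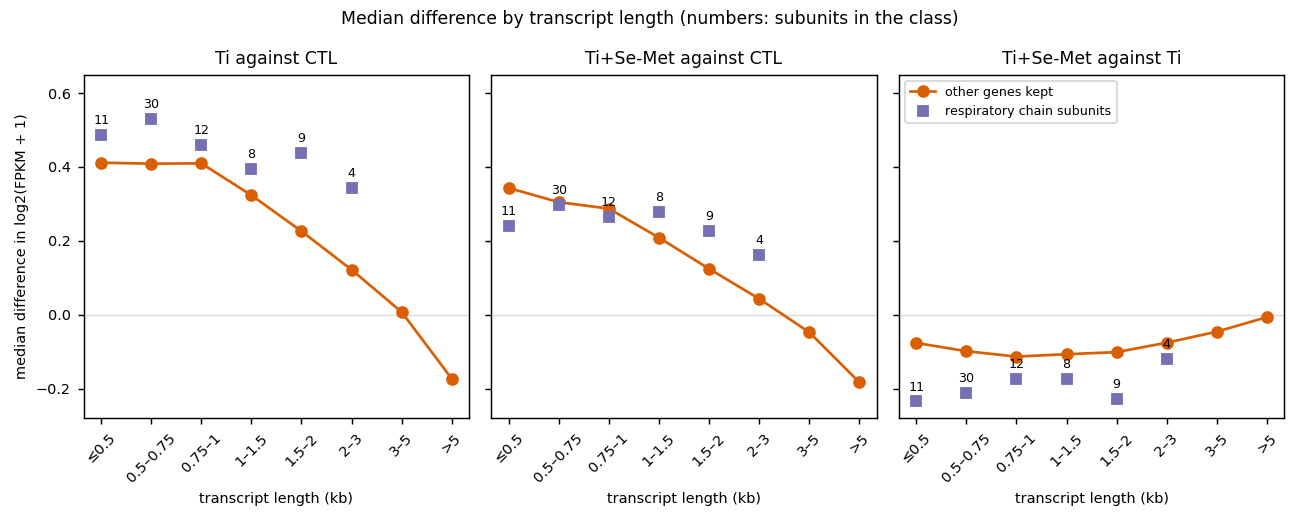
Median difference in log2(FPKM + 1) by class of transcript length in kb, for the respiratory chain subunits (squares, with their number) and all other genes kept (circles). The other genes fall from 0.41 in the shortest class to -0.17 in the longest for Ti against CTL, and the squares lie above them in that comparison.

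A set of 2238 other genes with lengths from the 10th to the 90th percentile of the subunits (437.3 to 1686.9 bases) had median ratios of 0.33, 0.23 and -0.10 in the 3 comparisons. The medians of the 58 subunits in this range were 0.19 above, 0.07 above and 0.10 below these, and those of all 74 subunits kept with a length were 0.15 above, 0.03 above and 0.09 below. Of these other genes, 73.1% were higher in Ti than in CTL and 28.4% were so by 1.5-fold, closer to the subunits than the 55.3% and 15.5% of all genes. Of the 58 subunits in this length range, 41 lay between the quartiles of the other genes for Ti against CTL, from -0.04 to 0.63. The subunits were also more highly expressed, with a median of 94.4 FPKM in CTL beside 18.7 for the other genes. Among genes of like length with a mean of at least 20 FPKM, the subunits' median stood 0.04 above the others in the first comparison, 0.08 below in the second and 0.09 below in the third. Within the subunits themselves, Spearman's rho of length and ratio over 74 genes was -0.09 and -0.01 in the first 2 comparisons, beside -0.32 and -0.28 over 10919 genes. In the third it was 0.16, beside 0.15. The part of length in the subunits' ratios was not tested.

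Some subunits of complexes IV and V exist as isoforms, of which a tissue uses mainly certain forms. Of the Cox6a pair, Cox6a1 made up 99.6%, 99.0% and 99.2% of the summed FPKM, and Cox6a2 the rest. Of subunit 7a, Cox7a2l, which is known from supercomplex assembly, was at 260.91, 329.19 and 293.91 FPKM. The general isoform Cox7a2 was at 85.05, 109.94 and 116.64 FPKM. The heart and muscle isoform Cox7a1 was at 0.48, 0.23 and 0.00 FPKM, about 2, 1 and 0 fragments, and was the subunit that was not kept. Cox7b, at 72.85, 93.24 and 81.51 FPKM, made up 97.9% to 99.2% of its pair with Cox7b2. Cox4i1, Cox6b1 (176.62, 277.78 and 236.81 FPKM) and Cox8a were the listed isoforms of their families.

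The c subunit of the ATP synthase is encoded by 3 genes whose mature proteins are identical and whose import sequences differ. Their summed level was 678.11, 1031.58 and 994.10 FPKM. Atp5g3 was at 330.62, 478.54 and 401.28 FPKM and Atp5g1 at 110.66, 170.31 and 130.54, so both were highest in Ti. Atp5g2 was highest in Ti+Se-Met, at the levels given above. The share of Atp5g2 in the sum was 34.9%, 37.1% and 46.5%, and that of Atp5g3 was 48.8%, 46.4% and 40.4%. The order of these genes was thus Atp5g3 above Atp5g2 in CTL and Ti, and the reverse in Ti+Se-Met.

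**Figure D4:**
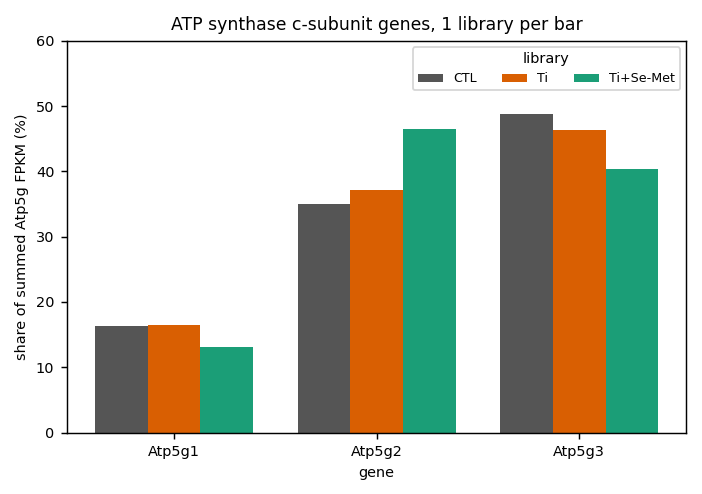
Share of the summed FPKM of the 3 c-subunit genes (percent, bars from 0) in each library (grey CTL, orange Ti, green Ti+Se-Met), 1 library per bar with no error bar. Atp5g2 goes from 34.9% in CTL to 46.5% in Ti+Se-Met and passes Atp5g3, which goes from 48.8% to 40.4%.

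Of the genes that work beside these subunits, 8 were kept from a list of complex II, the electron carriers and the related Ndufab1 and Atpif1, of which 7 were higher in Ti than in CTL, with a median ratio of 0.56 (6 of 8 and 0.33 in TPM). Cyc1, the cytochrome c1 of complex III, was at 46.23, 96.19 and 81.98 FPKM, a ratio of 1.04, near those of Uqcr10 and Uqcrq. The complex II subunits Sdhb (59.39, 88.83 and 73.83 FPKM) and Sdhd (47.35, 80.58 and 64.17) were higher in Ti. Sdhc had a ratio of 0.17 (104.40, 117.53 and 112.21). Sdha, its flavoprotein, was lower in Ti (89.65, 74.16 and 79.34), as Ndufs1 was. Cytochrome c, Cycs, was at 29.93, 46.49 and 34.88 FPKM. The ATP synthase inhibitor Atpif1 was at 57.94, 81.01 and 78.48 FPKM and Ndufab1, the acyl carrier protein of complex I, at 86.64, 126.40 and 127.95. Ndufa4l2 was at 0.50, 0.17 and 0.12 FPKM.

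Of 46 assembly factors, 37 were higher in Ti than in CTL and 10 were so by 1.5-fold, with 0 lower by 1.5-fold and a median ratio of 0.30 (27 higher and a median of 0.08 in TPM). The share past 1.5-fold upward was 21.7%, against 15.5% of all genes. In TPM 5 passed it upward, 10.9% against 8.22% of all genes. The widest were Sco2, which delivers copper to complex IV (13.12, 43.35 and 30.84 FPKM), Cox10, which makes its haem precursor (3.61, 8.61 and 7.61), and Ndufaf2, which assists complex I (13.09, 27.11 and 29.93). Of 15 genes kept from a list of regulators of respiratory genes and of proteins that transcribe or copy mitochondrial DNA, 11 were higher in Ti, 4 of them by 1.5-fold, and 0 were lower by 1.5-fold, with a median of 0.31 (9 higher and a median of 0.11 in TPM). In TPM 3 of the 15 passed 1.5-fold upward and 1 downward. Of the 4 past it in FPKM, Pprc1 is a coactivator of nuclear genes and the others, Twnk, Polrmt and Tfb1m, act on the mitochondrial genome or its transcripts. Pprc1 was at 12.35, 26.38 and 22.45 FPKM, the mitochondrial helicase Twnk at 9.64, 19.21 and 14.24, and the mitochondrial RNA polymerase Polrmt at 12.80, 23.91 and 18.24. The related coactivator Ppargc1a was at 0.00, 0.01 and 0.00 FPKM. Nrf1, Yy1 and Gabpa, which bind the motifs searched above, had ratios of 0.40, 0.47 and -0.29 in Ti against CTL. The medians of the subunits with and without the NRF1 letters were 0.61 over 9 and 0.44 over 54 in this comparison, with and without the YY1 letters they were 0.48 over 10 and 0.44 over 53, and with and without the ETS letters 0.44 over 5 and 0.48 over 58. In Ti+Se-Met against CTL they were 0.24 and 0.27 for NRF1, 0.17 and 0.27 for YY1, and 0.25 and 0.27 for ETS. In Ti+Se-Met against Ti they were -0.31 and -0.19 for NRF1, -0.25 and -0.19 for YY1, and -0.14 and -0.21 for ETS. A link between these regulators, the letters and the levels of the subunits was not tested.

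Not every mitochondrial list stood as high as the subunits, and some stood higher. The lists were not matched for transcript length, with which the ratios moved over all genes. The citric acid cycle enzymes ran from 1331 to 4127 bases and the regulators above from 1402 to 8661, beside a median of 713.5 for the subunits. The part of length in the differences between lists was not tested. Of 13 citric acid cycle enzymes, 11 were higher in Ti, 0 passed 1.5-fold in either direction and the median was 0.31 (9 higher and a median of 0.09 in TPM). In TPM 0 of them passed 1.5-fold upward and 1 downward. Mdh2 was at 200.62, 297.22 and 280.41 FPKM, Dlst at 55.32, 74.76 and 70.98 and Sucla2, the widest downward, at 39.48, 27.31 and 28.71. Of 78 mitochondrial ribosomal proteins, which make the subunits encoded in the mitochondrion, 75 were higher and 44 were so by 1.5-fold, with a median of 0.61 and with Mrps18b at 28.85, 84.46 and 65.47 FPKM. Mrpl38 (18.58, 52.83 and 39.85 FPKM) and Mrps18a (41.52, 88.14 and 70.00) followed. Of 78 cytosolic ribosomal proteins kept, which have no part in respiration, 77 were higher and 28 were so by 1.5-fold, with a median of 0.51. The shares past 1.5-fold upward were 56.4% of the mitochondrial and 35.9% of the cytosolic ribosomal proteins, against 15.5% of all genes. In TPM 73 of the mitochondrial and 75 of the cytosolic ribosomal proteins were higher, with medians of 0.40 and 0.28. By 1.5-fold 21 and 5 were higher in TPM, which is 26.9% and 6.41%, against 8.22% of all genes. The cytosolic share was then below that of all genes. The widest of the cytosolic ones were Rps2, Rplp0 and Rplp1, with ratios of 0.91, 0.86 and 0.85. In the second comparison the medians were 0.41 in mitochondrial and 0.46 in cytosolic ribosomal proteins, and in the third they were -0.26 and -0.06, beside 0.26 and -0.19 in the subunits.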

How the data were processed

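RNA of MC3T3-E1 cells was sequenced in 3 libraries, 1 per condition. Before alignment by HISAT2, adapter-containing and low-quality reads had been discarded by the authors. HTSeq gave the gene counts, and FPKM per gene with 2 decimals were deposited. The submitters' processing notes also name StringTie, SAMtools and the build mm9. How FPKM were made from counts is not given in the sources used here, and some listed transcript accessions are newer than that build, so no coordinates were taken from the files. All value columns matched a library.

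Ratios, as differences in log2(FPKM + 1), were calculated over genes with at least 1 FPKM in at least 1 library (Python 3.11.15 with pandas 2.3.3, numpy 2.4.6 and scipy 1.17.1; matplotlib 3.10.9 for plots). FPKM are not counts, and no count model was used. Transcript lengths, of the first listed transcript, came from GENCODE M21 on GRCm38 and were found for 98.0% of genes kept and 75 of 76 subunits (not Ndufb1). Depth was read from genes with transcripts of 350 to 1200 bases, subtracting 140 bases from each length. Other fits placed it between 13200000 and 14800000 fragments in CTL, 13500000 and 15850000 in Ti, and 9650000 and 11450000 in Ti+Se-Met. Promoter sequences came from RefSeq.

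Members and lists were chosen with earlier results of these data known. Named with values were the 3 highest and 2 lowest subunits of each complex in CTL, the 5 largest differences in each direction of each comparison, all isoforms, the complex I core, complex II and the electron carriers, and the 3 largest differences of each other list. Of the genes under this rule, 1 is not reported here. Other subunits and regulators named, such as Atp5a1, Uqcrc1, Ndufb8, Ppargc1a, Nrf1, Yy1 and Gabpa, were added for their role or length. The steps were tested on simulated data. Alternatives were other pseudocounts, filters, scalings, fold thresholds, complex assignments and length settings.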

Additional observations from a re-analysis of the deposited data

How the results depend on the processing

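No paired analysis was possible because there was 1 library for each condition, and for the same reason no library could be left out. The median ratio of the subunits kept its sign in every alternative. The spread of the complex medians ran from 0.06 to 0.08, from 0.11 to 0.19 and from 0.12 to 0.17 in the 3 comparisons. The number of subunits past the fold threshold moved most. In Ti against CTL 25 subunits passed 1.5-fold, 55 passed when the higher level had to be 25% above the lower and 3 passed 2-fold, while 4 in TPM and 6 by the upper quartile passed 1.5-fold. Between Ti+Se-Met and CTL 6 passed, with 31 and 1 at the lower and the higher threshold. Between Ti+Se-Met and Ti 1 passed, with 14 and 0 at these thresholds, 2 in TPM and 3 with a pseudocount of 0.1. The median ratio of the subunits for Ti against CTL moved from 0.48 to 0.25 in TPM and 0.30 by the upper quartile, and for Ti+Se-Met against CTL from 0.26 to 0.0646 and 0.11, while the median of all genes moved with it. Less that of all genes, these medians were 0.39 and 0.38, and 0.24 and 0.23, beside 0.40 and 0.25 in FPKM. The difference from other genes of like length ran from 0.04 to 0.22 in Ti against CTL and from -0.10 to -0.08 in Ti+Se-Met against Ti. Between Ti+Se-Met and CTL it was 0.03 and turned below 0 in 4 alternatives, among genes under 1 kb (-0.04), with a mean of at least 5 FPKM (-0.01), with a mean of at least 20 FPKM (-0.08) and with the length subtraction of each library (-0.02), of which the last 2 were chosen after seeing the data. When that subtraction, the best fit of each library, was used, the medians of the subunits were 0.39, 0.14 and -0.22. The shallowest library was Ti+Se-Met, so its low values, such as those of Cox6a2 and Cox7b2, were the least precise.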
